A study of Mus musculus with 24 samples.

Results

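The genes described here are the transcription factors and markers of the mesenchymal transition, *Vim*, *Fn1*, *Snai1*, *Snai2*, *Zeb1*, *Zeb2* and *Twist1*. They were chosen by symbol from a list of 8 genes, and 7 of the 8 were measured among the 12091 genes of the deposited table. The remaining symbol, *Cdh2*, was not analysed here. RNA from 24 mouse samples was sequenced in 4 experiments, each with 3 control samples and 3 samples in which pleiotrophin (PTN), a secreted heparin-binding growth factor, was blocked or depleted, to ask how the loss of PTN alters gene expression in breast cancer.

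In the tumor experiments, mice received either C44, a mouse IgG that served as control, or 3B10, an antibody against PTN, in repeated doses of 15 mg/kg. 4T1 is a triple-negative mammary carcinoma line that was implanted orthotopically into female BALB/c mice aged 8 wk. *MMTV-PyMT* tumors arise in FVB/N females in which the mouse mammary tumor virus promoter drives polyoma middle T antigen, and these animals were treated from 8 to 12 wk of age. The cell experiments used E0771, a mammary adenocarcinoma line of C57BL/6 origin, and E0771-LG, which was derived from an E0771 lung metastasis. Each line carried either an shRNA against *Ptn* (shPTN) or a control vector with a sequence against EGFP (shCtrl). One construct was used for both lines, and shPTN and shCtrl cells were selected with puromycin as separate populations, so changes that arose during selection cannot be told apart from the effect of the shRNA. The methods of the study call the samples biological replicates, but do not say how the cell samples of a group were grown apart, and p-values measure only the spread between these samples.

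The epithelial to mesenchymal transition is a program in which epithelial cells lose their junctions and apical polarity and gain motility. The zinc finger factors SNAIL (*Snai1*), SLUG (*Snai2*), ZEB1 and ZEB2 bind E-box sequences and repress epithelial genes such as *Cdh1*, whereas the helix-loop-helix factor TWIST1 binds E-boxes as a dimer and is required for migration of mesodermal and neural crest cells. Vimentin (*Vim*) is the intermediate filament of mesenchymal cells and fibronectin (*Fn1*) is an extracellular matrix glycoprotein, and in tumors both are also made by fibroblasts and other stromal cells.

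In the *MMTV-PyMT* tumors and in all cells, every deposited value of fewer than 2000 reads was the log2 CPM (the log2 of reads scaled to the total of the sample) of a whole number of reads, within 0.01 reads, and the depth was between 15.63 and 21.12 M reads per sample. Values of the 4T1 tumors showed no such steps, the depth is unknown and the normalization was not given in the sources used here, so 4T1 levels were not set beside those of other samples or ranked between genes. Levels of different genes were compared as CPM per kb of exon. The length was that of all annotated exons of a gene joined, which can exceed the length of its main transcript. Where it does, the level per kb is too low, so the order of genes depends on this choice.

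*Vim* was by far the most abundant of these transcripts in the cells, at 961 ± 62.3 CPM per kb (SD, n = 3) in E0771 shCtrl and 1200 ± 114 (SD, n = 3) in E0771-LG shCtrl cells. *Twist1* came next, at 67.8 ± 5.67 and 96.9 ± 6.4 CPM per kb (SD, n = 3 each). In E0771 shCtrl cells *Snai2* followed at 9.94 ± 0.499 CPM per kb, and *Zeb1* (7.05 ± 1.16), *Snai1* (5.98 ± 1.08) and *Zeb2* (5.75 ± 0.355, SD, n = 3 each) lay lower, with the samples of neighboring genes overlapping. In E0771-LG shCtrl cells *Snai1* (11.4 ± 2.18 CPM per kb) stood above *Snai2* (9.18 ± 0.473) by mean, with overlapping samples, and both were above *Zeb1* (7.02 ± 0.193) and *Zeb2* (5.92 ± 0.889, SD, n = 3 each), which overlapped each other. *Fn1* was nearly absent from the cells, with 0 to 3 reads in each E0771 sample, 2 to 12 reads in E0771-LG shCtrl and 0 to 3 reads in E0771-LG shPTN samples. It fell below the filter on low values and was not tested in the cells, so 6 of the 7 genes entered the cell comparisons and 7 of 7 the tumor comparisons.

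The tumors had another order. In *MMTV-PyMT* tumors of the C44 group *Vim* was at 39 ± 14.1 and *Fn1* at 18.7 ± 12.2 CPM per kb (SD, n = 3 each), with overlapping samples. *Snai1* was at 5.1 ± 3.01, *Twist1* at 1.7 ± 0.639 and *Snai2* at 1.52 ± 0.692 CPM per kb, and *Zeb1* (0.537 ± 0.242) and *Zeb2* (0.44 ± 0.0803, SD, n = 3 each) were lowest. The only neighbors in this order whose samples did not overlap were *Snai2* and *Zeb1*. With 3B10 *Vim* (32.2 ± 3.55 CPM per kb), *Fn1* (12.1 ± 3.71) and *Snai1* (3.66 ± 2.51) were apart from each other, whereas *Snai2* (2.21 ± 1.17, SD, n = 3 each) overlapped *Snai1*. In 4T1 tumors of the C44 group the deposited log2 values were 10.58 ± 0.08 for *Vim*, 11.57 ± 0.11 for *Fn1*, 5.16 ± 0.13 for *Snai1* and 1.68 ± 0.34 for *Snai2* (SD, n = 3 each). They were 2.47 ± 0.44 for *Zeb1*, 4.06 ± 0.44 for *Zeb2* and 5.52 ± 0.15 for *Twist1* (SD, n = 3 each).

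The epithelial references behaved differently between the models. *Cdh1*, the gene of E-cadherin, had 8720 to 11823 reads in each *MMTV-PyMT* tumor but only 0 to 7 reads in any cell sample, and was not tested in the cells. *Epcam*, an epithelial adhesion molecule, had 129 to 146 reads in E0771 shCtrl and 245 to 307 in E0771-LG shCtrl samples, and *Krt8*, a keratin of simple epithelia, had 1559 to 2188 and 2470 to 3667 reads. Its partner *Krt18* had only 2 to 3 reads in E0771 shCtrl and 13 to 18 in E0771-LG shCtrl samples, and *Krt19* had 0 in both. The shCtrl cells of these mammary adenocarcinoma lines thus had *Krt8* and *Vim* transcripts but few or none of *Cdh1*, *Krt18* and *Krt19*.

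Promoter sequences are given for 4 of the 5 members that changed in the cells, so that they can be read beside the values. RefSeq promoter windows (GRCm38.p6, 250 bases before to 50 bases after the start) were found for *Vim*, *Snai1*, *Zeb2* and *Twist1*, 4 of the 7 members. *Fn1*, *Snai2* and *Zeb1* had no entry. Both strands were searched for the E-box CAGGTG, which SNAIL and ZEB factors bind, for E-boxes of any kind, spelled CANNTG and including the former, for the AP-1 motif TGANTCA and for the NF-κB motif. In the sequences below, capitals mark matches to the first of these E-boxes, to AP-1 and to NF-κB on either strand. The windows lie at chr2:13574061-13574360 on the plus strand for *Vim*, chr2:167537945-167538244 on the plus strand for *Snai1*, chr2:45117393-45117692 on the minus strand for *Zeb2* (the first of 4 entries) and chr12:33957421-33957720 on the plus strand for *Twist1*.
Vim: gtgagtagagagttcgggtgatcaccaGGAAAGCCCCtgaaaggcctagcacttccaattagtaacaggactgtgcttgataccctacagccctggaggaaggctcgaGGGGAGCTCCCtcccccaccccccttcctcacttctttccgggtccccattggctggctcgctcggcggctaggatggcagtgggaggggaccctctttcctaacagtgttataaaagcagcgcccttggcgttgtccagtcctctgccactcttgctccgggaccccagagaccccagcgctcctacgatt
Snai1: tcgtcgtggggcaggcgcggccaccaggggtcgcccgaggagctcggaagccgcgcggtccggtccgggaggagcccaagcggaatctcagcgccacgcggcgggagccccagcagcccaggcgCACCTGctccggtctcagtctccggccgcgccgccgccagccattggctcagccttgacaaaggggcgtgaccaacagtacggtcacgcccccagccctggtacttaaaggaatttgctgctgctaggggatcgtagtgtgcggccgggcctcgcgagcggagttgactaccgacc
Zeb2: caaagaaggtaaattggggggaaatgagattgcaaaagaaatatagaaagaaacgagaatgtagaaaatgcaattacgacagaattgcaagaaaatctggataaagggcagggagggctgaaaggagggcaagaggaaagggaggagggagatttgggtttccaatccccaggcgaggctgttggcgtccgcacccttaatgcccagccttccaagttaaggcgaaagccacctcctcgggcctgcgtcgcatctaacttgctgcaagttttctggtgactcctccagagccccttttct
Twist1: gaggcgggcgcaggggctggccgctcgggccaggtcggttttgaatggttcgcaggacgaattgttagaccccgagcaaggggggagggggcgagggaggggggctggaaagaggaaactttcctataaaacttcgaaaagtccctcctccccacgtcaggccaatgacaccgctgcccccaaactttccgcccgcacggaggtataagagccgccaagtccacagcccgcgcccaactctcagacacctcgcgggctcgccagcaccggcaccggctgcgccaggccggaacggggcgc

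The *Snai1* window held 1 match to CAGGTG, which is also its 1 E-box of any kind, and the *Vim* window held 3 matches to the NF-κB motif, some of which overlap, in 2 stretches. The windows of *Zeb2* and *Twist1* held none of the motifs. Among all 32851 promoters of the same length, 20.2% held CAGGTG, 72.3% any E-box, 7.81% the AP-1 motif and 8.46% the NF-κB motif. The windows also differed in composition, with 70% G and C and 34 CpG dinucleotides in *Snai1*, 66% and 27 in *Twist1*, 59.3% and 11 in *Vim*, and 49.3% and 9 in *Zeb2*.

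*Ptn*, the target of the shRNA, was examined first in the knockdown. In E0771 cells its values were 2.90, 2.18 and 2.28 log2 CPM with shCtrl and −0.63, 0.25 and 0.53 with shPTN, from 80 to 128 and 12 to 22 reads. In E0771-LG cells they were 3.65, 4.51 and 3.74 with shCtrl and 1.42, 0.98 and 1.38 with shPTN, from 216 to 446 and 35 to 56 reads. In both lines the 3 shPTN values were lower than all control values, and *Ptn* fell to 18.9% of control in E0771 (log2 fold change −2.40, limma adjusted p = 0.00159) and to 15.3% in E0771-LG (−2.71, limma adjusted p = 6.3e-05).

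In E0771 cells *Snai1* was the member that changed with the knockdown, and it rose. Its values were 3.55, 3.13 and 3.12 log2 CPM in shCtrl and 4.25, 4.76 and 4.48 in shPTN samples, from 144 to 202 and 348 to 490 reads. All 3 shPTN samples were above all 3 shCtrl samples. It reached 2.35 times the control level (log2 fold change 1.23, SE 0.18, limma adjusted p = 0.00119), and in these bulk samples a difference in the number of cells that express a gene and a difference in RNA per cell cannot be told apart. 1 of the 6 members tested was called at an adjusted p under 0.05, beside 20.6% of all genes. By direction, 1 of 6 was called higher and 0 lower, beside 8.89% higher and 11.7% lower among all genes, and at an unadjusted p under 0.05 limma gave 2 of 6, the other being *Twist1*, beside 3541 of 10394 genes. The result concerns *Snai1* and not the genes as a group. The count over all genes depended on single samples, with 2140 of 10394 genes called with all samples, 1171 without replicate 3 and 1268 without replicate 2 of shCtrl, and 1238 without replicate 3 of shPTN, and with 912 in 1 fit of all 24 samples.

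The remaining members in E0771 cells did not pass. *Twist1* was at 6.84, 6.64 and 6.87 log2 CPM with shCtrl and 7.16, 6.87 and 7.03 with shPTN, where the highest shCtrl sample touched the lowest shPTN sample (log2 fold change 0.23, adjusted p = 0.127). *Zeb1* was at 5.89, 6.37 and 6.23 with shCtrl and 5.66, 6.08 and 5.89 with shPTN, also with overlap (log2 fold change −0.28, adjusted p = 0.185). The fold changes of *Vim*, *Zeb2* and *Snai2* lay between −0.20 and −0.06, with adjusted p-values from 0.324 to 0.773. Without replicate 2 of E0771 shPTN, *Twist1* passed as well (0.31, adjusted p = 0.0479). With the replicate numbers as a block *Zeb1* passed too (limma adjusted p = 0.0454), but the numbers were not used as pairs here.

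In E0771-LG cells the same shRNA was followed by lower *Zeb1*, *Zeb2* and *Vim* and by higher *Twist1*. *Zeb1* was at 70.3, 74.2 and 71.7 CPM in shCtrl samples and at 32, 38.1 and 40.7 CPM in shPTN samples. The shCtrl samples lay close together and every shPTN sample was well below them. *Zeb1* fell to 51% of the control level (log2 fold change −0.97, SE 0.12, limma adjusted p = 0.000151), 1216 to 1454 reads against 675 to 709. *Zeb2* was at 6.70, 6.81 and 7.11 with shCtrl and 6.37, 6.05 and 6.29 with shPTN. Its groups did not overlap either, and it fell to 64.3% (log2 fold change −0.64, SE 0.13, adjusted p = 0.00258).

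*Zeb1* lies on chromosome 18, and expression from this chromosome was lower as a whole in E0771-LG shPTN cells. Of 258 genes of chromosome 18 that were tested, 144 (55.8%) were called lower and 9 (3.49%) higher, beside 22.1% lower and 24.3% higher among all genes. Their median log2 fold change was −0.47, the lowest of 20 chromosomes, whereas the medians of the other 19 lay between −0.03 and 0.21. The fold change of *Zeb1* minus the median of the 257 other genes of its chromosome was −0.51, and 36 of these had a lower value than *Zeb1*. In E0771 cells the median of chromosome 18 was −0.13, also the lowest of the 20, with 59 of 260 genes (22.7%) called lower. How far the decrease of *Zeb1* is part of this shift was not tested. *Zeb2*, *Vim* and *Snai1* lie on chromosome 2, whose median was −0.00 in E0771-LG cells, *Snai2* on chromosome 16 (0.00) and *Twist1* on chromosome 12 (0.18). The comparison by chromosome was added after the values had been seen.

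*Vim* was at 12.62, 12.45 and 12.35 log2 CPM in E0771-LG shCtrl and 12.04, 12.15 and 12.18 in shPTN samples. The groups were apart by less than the range of the shCtrl samples, and *Vim* fell to 78.6% of control (log2 fold change −0.35, SE 0.08, limma adjusted p = 0.00674). With 80737 to 109315 reads per sample, depth was not limiting for this gene. In 1 fit over all 24 samples the same difference had an adjusted p of 0.155, the highest of 15 alternatives, while the other 14 kept it under 0.05.

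*Twist1* moved the other way. Its values were 7.23, 7.41 and 7.27 in E0771-LG shCtrl and 7.81, 7.81 and 7.74 in shPTN samples, with little spread in either group and no overlap. It rose 1.4-fold (log2 fold change 0.49, SE 0.09, limma adjusted p = 0.00159). *Snai1* was at 4.46, 4.22 and 3.90 with shCtrl and at 4.62, 4.62 and 4.58 with shPTN, again without overlap, but the difference of 0.41 just missed the threshold (SE 0.16, adjusted p = 0.0531). It passed without replicate 1 of E0771-LG shCtrl (0.55, adjusted p = 0.0109), and the adjusted p ranged from 0.0109 to 0.398 over 15 alternatives. *Snai2*, at 4.21, 4.14 and 4.29 against 3.83, 4.03 and 4.01, had a log2 fold change of −0.26 (adjusted p = 0.158).

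Together 4 of 6 members were called in E0771-LG cells, 1 higher and 3 lower, beside 46.4% of all genes called, 24.3% higher and 22.1% lower. Nearly every second gene differed between shPTN and shCtrl cells of this line, so 4 of 6 is near the background. The groups did not overlap for any of the 6 members, also not for *Snai2*, which was not called. The share of all genes without overlap is not given for the cell comparisons, so a lack of overlap there says little about a member. In both lines the direction of the 6 members was the same, with *Snai1* and *Twist1* above and *Zeb1*, *Zeb2*, *Vim* and *Snai2* below control. By limma 0 of the 6 passed in both lines, beside 1028 of 10223 genes, so this count says little about the members. *Zeb2* in E0771 cells changed sign when replicate 1 of shPTN was left out (0.07).

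**Figure D1:**
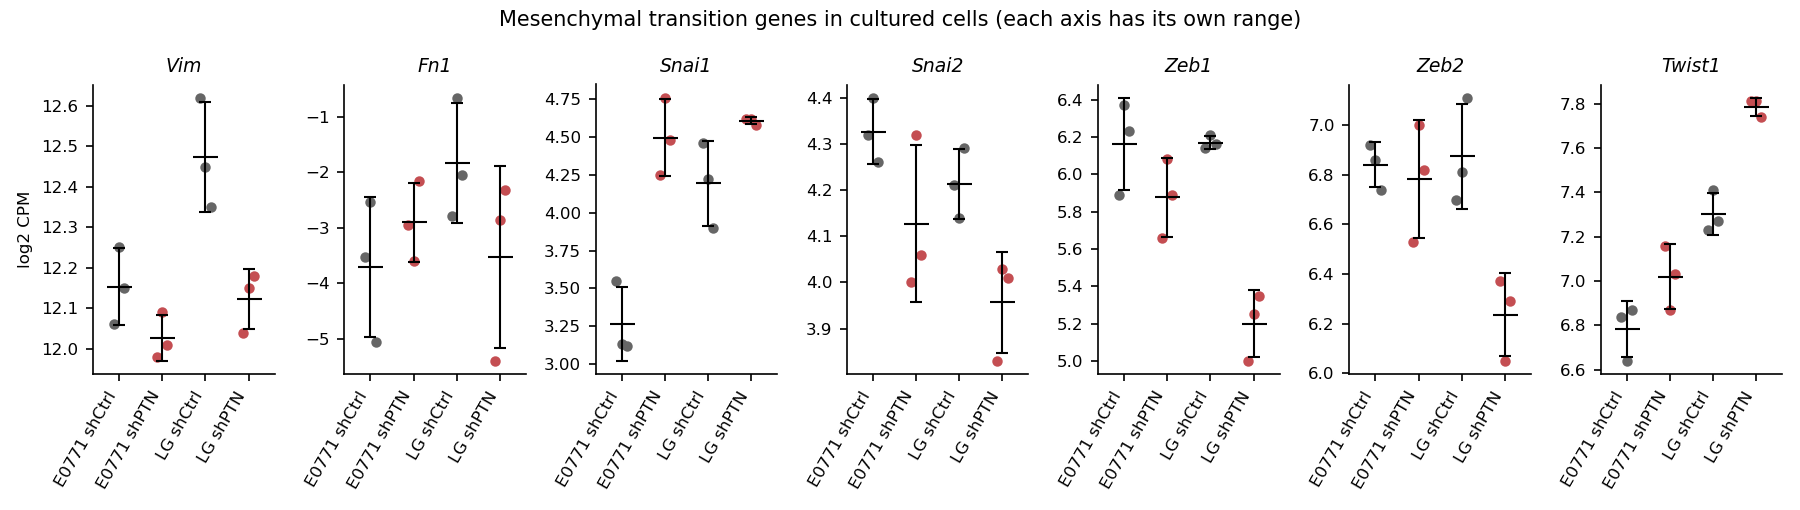
Log2 CPM of the 7 genes in each cultured sample, with dark points for shCtrl and red points for shPTN and with the mean and SD of 3 samples as bars. Each gene has its own axis range. *Snai1* is higher in all E0771 shPTN than in all E0771 shCtrl samples, *Zeb1* and *Zeb2* are lowest in E0771-LG shPTN samples, and *Fn1* rests on 0 to 12 reads.

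The size of the effect was compared between the lines with an interaction term over the 12 cell samples. These knockdown comparisons share no samples. For *Zeb1* the log2 fold change in E0771-LG minus that in E0771 cells was −0.69 (SE 0.19, limma adjusted p = 0.0137). For *Zeb2* the difference was −0.58 (SE 0.19, adjusted p = 0.0255) and for *Snai1*, called only in E0771, it was −0.82 (SE 0.25, adjusted p = 0.0197). The differences for *Vim* (−0.22, adjusted p = 0.171), *Twist1* (0.25, adjusted p = 0.15) and *Snai2* (−0.06, adjusted p = 0.828) did not pass. Thus the effect differed between lines for 3 of 6 members, all 3 with a lower fold change in E0771-LG. Among all genes it differed for 34.7%, with a higher fold change in E0771-LG for 18.8% and a lower one for 16%. The median over chromosome 18 in this comparison was −0.31, with 95 of 254 genes (37.4%) lower. Without replicate 3 of E0771 shCtrl, or without replicate 2 of E0771 shPTN, only *Zeb1* passed.

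**Figure D2:**
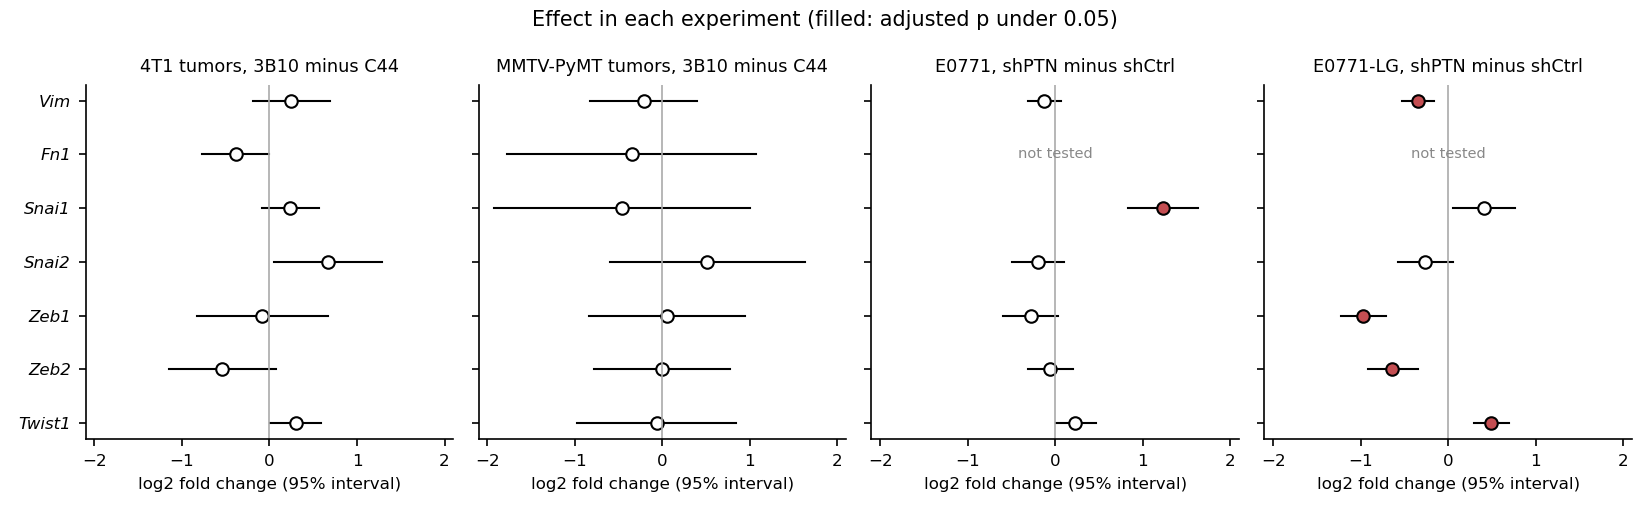
Log2 fold change of each gene (horizontal axis) in the 4 experiments, with the 95% interval of the limma fit as lines. Filled points have an adjusted p under 0.05, which holds for *Snai1* in E0771 and for *Vim*, *Zeb1*, *Zeb2* and *Twist1* in E0771-LG cells and for no gene in the tumors.

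Control cells of the lines were also compared with each other. This comparison shares its shCtrl samples with both knockdown comparisons, so values are given side by side and no agreement is read from them. *Snai1* was at 3.55, 3.13 and 3.12 log2 CPM in E0771 and 4.46, 4.22 and 3.90 in E0771-LG shCtrl samples, without overlap, and was 1.9 times as high in E0771-LG (log2 fold change 0.92, SE 0.20, limma adjusted p = 0.00269). *Twist1* was higher by 0.52 (SE 0.10, adjusted p = 0.00178) and *Vim* by 0.32 (SE 0.10, adjusted p = 0.0184), in both cases with all 3 E0771-LG above all 3 E0771 samples. *Zeb1* (0.01), *Zeb2* (0.03) and *Snai2* (−0.12) did not pass, with adjusted p-values from 0.466 to 0.966 and overlapping samples, and *Snai2* turned positive under median-of-ratios (0.03) and quantile (0.22) scaling. Hence *Snai1* differed by 0.92 between control lines, by 1.23 with the knockdown in E0771 and by 0.41 with the knockdown in E0771-LG cells. *Ptn* itself was 2.86 times as high in E0771-LG as in E0771 control cells (log2 fold change 1.51, SE 0.28, adjusted p = 0.0012).

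Of the 6 members, 3 were higher in E0771-LG control cells and 0 lower by limma, with the same 3 at an unadjusted p under 0.05, beside 6275 of 10411 genes. Among all genes 54.5% were called, 19.2% higher and 35.3% lower, and the median log2 fold change of all genes was −0.15. After median-of-ratios scaling that median was −0.00 and the share of calls that were higher went from 35.3% to 50.1%. Chromosomes also differed between the lines, and the medians were −0.37 for chromosome 2 (*Vim*, *Zeb2*, *Snai1*), −0.33 for chromosome 12 (*Twist1*), −0.42 for chromosome 16 (*Snai2*) and −0.08 for chromosome 18 (*Zeb1*). *Snai1* and *Twist1* were called under all 15 alternatives, with fold changes from 0.79 to 1.33 and from 0.45 to 0.67. *Vim* was called under 12 of 15 and lost the call in the fit of all 24 samples (adjusted p = 0.18) and without replicate 1 or replicate 3 of E0771 shCtrl.

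A list of 46 mesenchymal effector genes, which code for the matrix, contractile, adhesion and protease proteins that mesenchymal cells make, was examined next to the factors. In E0771 cells 20 of the 35 genes tested rose and 3 fell, with a median log2 fold change of 0.52 beside −0.03 for all genes, of which 8.89% were called higher and 11.7% lower. In the fit of all 24 samples 12 were called higher and 0 lower. The filter has a part in these counts, since *Col1a2* met it only with its shPTN samples. The fibrillar collagen *Col3a1* rose 7.12-fold (log2 fold change 2.83, SE 0.14, adjusted p = 2.02e-06), the matricellular protein gene *Thbs1* 6.52-fold (2.70, SE 0.34, adjusted p = 0.00178) and the lysyl oxidase *Loxl2* 5.7-fold (2.51, SE 0.14, adjusted p = 2.34e-06). Among those that fell were the fibronectin receptor subunit *Itga5* (−0.59, adjusted p = 0.00417) and the hyaluronan receptor *Cd44* (−0.50, adjusted p = 0.0089).

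In E0771-LG cells more genes of the list fell than rose. Of 37 genes tested 6 rose and 17 fell, with a median log2 fold change of −0.31 beside 0.05 for all genes, of which 24.3% were called higher and 22.1% lower. In the fit of all 24 samples 3 were called higher and 9 lower. *Col1a1* fell to 3.9% of control (log2 fold change −4.68, SE 0.46, adjusted p = 5.42e-05), with 184 to 211 reads against 3 to 12. All 3 shPTN values of *Col1a1* were below the filter value of 1 CPM, so it could be tested only as a gene that falls. The smooth muscle actin gene *Acta2* fell to 20.8% (−2.27, SE 0.29, adjusted p = 0.000463) and the calponin *Cnn1* to 21.1% (−2.24, SE 0.36, adjusted p = 0.000656). *Sparc*, a collagen-binding matricellular protein (1.30, adjusted p = 2.52e-05), *Loxl2* (1.20, adjusted p = 0.000739) and the galectin *Lgals1* (0.82, adjusted p = 0.00013) rose.

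The interaction term was negative and called for 16 of 35 effector genes and positive and called for 1, with a median of −0.87 beside 0.08 for all genes, of which 16% were called lower and 18.8% higher. Of 15 effector genes called in both lines, 7 changed in opposite directions, and all 7 rose in E0771 and fell in E0771-LG cells. This is 46.7% of the 15, beside 334 of 1028 genes (32.5%) over all genes called in both, of which 191 were higher in E0771 and lower in E0771-LG and 143 the reverse. The 7 genes, named after their values were seen, were *Acta2*, *Axl*, *Cald1*, *Col1a1*, *Mmp2*, *Myl9* and *Thbs1*. *Acta2* had 488 to 695 reads in E0771 shCtrl and 2224 to 3798 in E0771 shPTN samples, against 467 to 931 in E0771-LG shCtrl and 98 to 174 in E0771-LG shPTN samples, so the control read counts of the lines overlapped. Its fold changes of 2.38 and −2.27 differed by −4.64 (SE 0.42, adjusted p = 3.13e-05). The 8 genes called in the same direction in both lines included *Sparc* (1.33 in E0771 and 1.30 in E0771-LG), *Loxl2* and *Cd44* (−0.50 and −0.57).

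**Figure D3:**
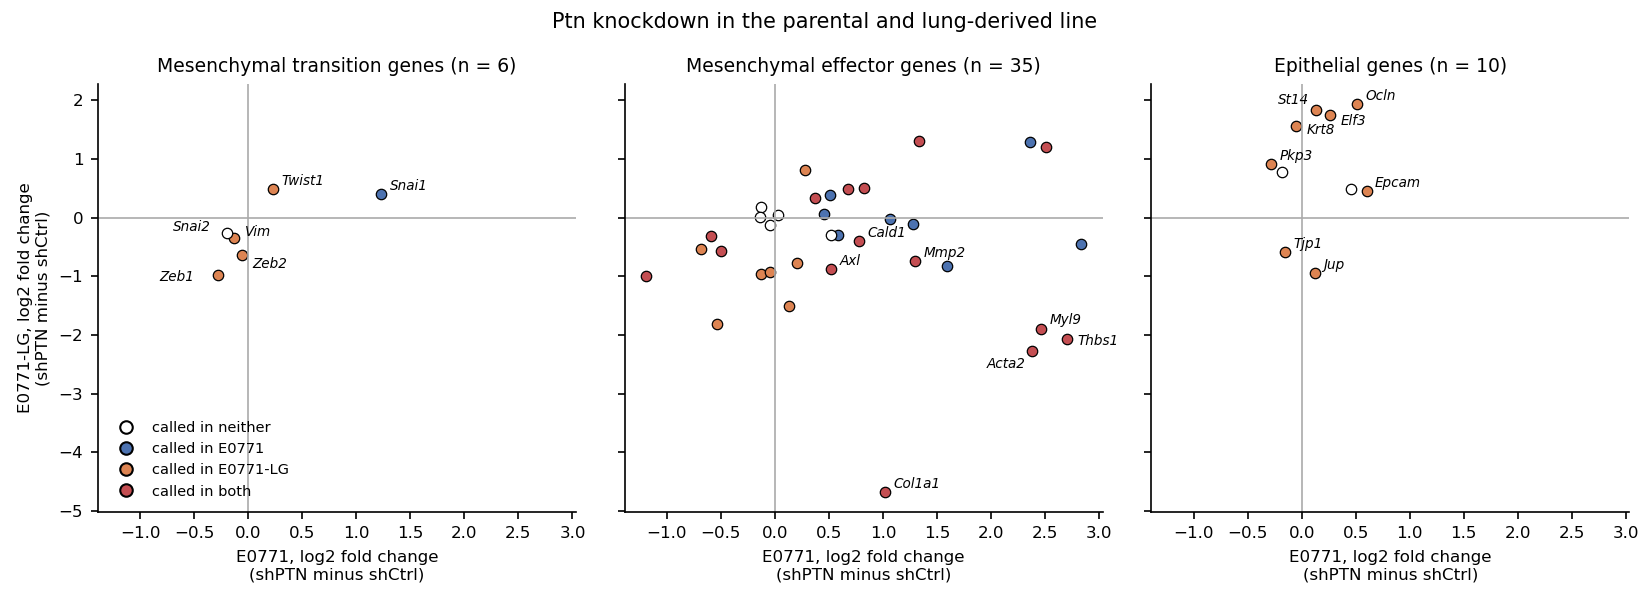
Log2 fold change with shPTN in E0771 (horizontal axis) and in E0771-LG cells (vertical axis) for members, effector genes and epithelial genes tested in both lines, colored by the line in which a gene had an adjusted p under 0.05. Labels name the members, the effectors called in opposite directions in the lines and the epithelial genes called in E0771-LG. *Acta2*, *Myl9*, *Thbs1* and *Col1a1* lie at the lower right, with higher values in E0771 and lower values in E0771-LG shPTN cells.

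Of 38 listed epithelial genes, 12 were tested in E0771 cells and 0 of them were called by limma, beside 20.6% of all genes, with 2 at an unadjusted p under 0.05, beside 3541 of 10394 genes, and a median log2 fold change of 0.12. The count of 0 moved in 7 alternatives and reached 3 higher and 2 lower without the filter on low values. In E0771-LG cells 7 of 14 rose and 2 fell, with a median of 0.83 beside 0.05 for all genes, beside 24.3% higher and 22.1% lower among all genes. Under a filter on a mean value of at least 5 the 7 became 4, and without a filter the 2 became 4. This count and median are partly set by the filter, because low genes entered only through the group in which they were high. *Krt18* was at 0.752, 0.919 and 0.86 CPM in shCtrl samples, all below the filter value of 1, and at 5.54, 8.31 and 7.17 CPM in shPTN samples, so it could be tested only as a gene that rises. *Krt8* (log2 fold change 1.57, SE 0.14, adjusted p = 3.88e-05) and the membrane serine protease *St14* (1.83, SE 0.35, adjusted p = 0.00718) rose from levels above the filter, and the tight junction gene *Ocln* (1.94, SE 0.34, adjusted p = 0.00109) from 16 to 20 reads. Other junction genes fell, namely plakoglobin *Jup* to 52.1% (−0.94, adjusted p = 0.00109) and the tight junction scaffold *Tjp1* to 66.9% (−0.58, adjusted p = 0.00366). *Epcam* was called higher in E0771-LG cells (0.46, adjusted p = 0.0381), but the call was lost in 6 alternatives, among them those without replicate 1 or 3 of shCtrl or of shPTN, and its change of 0.60 in E0771 cells missed the threshold (adjusted p = 0.054) unless replicate 2 of E0771 shPTN was left out. The interaction term was called higher for 4 of 10 epithelial genes and lower for 1, with a median of 1.08 beside 0.08 for all genes, of which 18.8% were called higher and 16% lower, and the same limit of the filter holds. Most genes of the list were too low in the cells to be tested.

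Of 39 other transcription factors linked to the transition, 26 were tested in E0771 cells, where 7 rose and 3 fell (median −0.01 beside −0.03 for all genes), beside 8.89% higher and 11.7% lower among all genes. Without replicate 3 of E0771 shCtrl only 2 instead of 7 were called higher. The helix-loop-helix inhibitors *Id2* (2.07, adjusted p = 0.0157) and *Id3* (1.71, adjusted p = 0.025) and the forkhead factor *Foxc1* (1.47, adjusted p = 0.000858) rose, and *Klf4* (−1.04, adjusted p = 0.000461), *Sox9* (−0.85, adjusted p = 0.000786) and *Ets2* (−0.49, adjusted p = 0.0149) fell. The calls of *Id2* and *Id3* were lost without replicate 3 of E0771 shCtrl or without replicate 1 or 2 of E0771 shPTN, that of *Id3* also without replicate 3 of shPTN, and that of *Ets2* without replicate 2 of shCtrl. Of 25 tested in E0771-LG cells 2 rose and 10 fell (median −0.09 beside 0.05), beside 24.3% higher and 22.1% lower among all genes, and the 2 became 4 when eBayes was not robust. *Tead1*, the DNA-binding partner of YAP, fell to 42.7% (−1.23, adjusted p = 4.95e-05), the homeobox factor *Prrx1* to 44.5% (−1.17, adjusted p = 3.88e-05) and *Ets1* to 63.6% (−0.65, adjusted p = 0.000269). *Id1* (0.56, adjusted p = 0.00299) and the E protein *Tcf3* (0.51, adjusted p = 0.00262) rose. The interaction term was called for 13 of 25, higher for 4 and lower for 9, beside 34.7% of all genes, 18.8% higher and 16% lower.

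Among 45 signalling genes upstream of the transition, 36 were tested in E0771 cells, where 8 rose and 4 fell (median 0.10 beside −0.03), beside 8.89% and 11.7% of all genes, and in the fit of all 24 samples 1 instead of 4 was lower. The 4 included *Fgf2*, with 26 to 69 reads in shCtrl and 8 to 11 in shPTN samples. All its shPTN values were below the filter value of 1 CPM, so it could be tested only as a gene that falls. The TGF-β-induced matrix protein *Tgfbi* (2.12, adjusted p = 0.000187), the receptor *Pdgfrb* (1.61, adjusted p = 0.000469) and the ligand *Tgfb2* (1.53, adjusted p = 0.00065) rose, and the ligands *Tgfb1* (−1.01, adjusted p = 0.00273) and *Jag1* (−0.77, adjusted p = 0.031) fell. *Jag1* lost the call without any 1 of 4 samples (replicates 2 and 3 of shCtrl, 1 and 3 of shPTN). In E0771-LG cells 5 of 34 rose and 18 fell (median −0.42 beside 0.05), beside 24.3% and 22.1% of all genes, and without replicate 2 of E0771-LG shPTN 11 instead of 18 were lower. *Bmp7*, a ligand of the BMP branch, rose 14.9-fold (3.90, SE 0.26, adjusted p = 1.54e-05), from 17 to 25 reads up to 252 to 357 reads. *Tgfb3* rose from 14 to 21 reads up to 49 to 71 reads (1.76, adjusted p = 0.00309). Not all shCtrl values of *Bmp7* and *Tgfb3* reached the filter value of 1 CPM, so each met the filter only with its shPTN samples. *Pdgfa* also rose (1.27, adjusted p = 0.000215). The receptors *Met* (−1.39, adjusted p = 2.42e-05) and *Il6st* (−0.92, adjusted p = 4.43e-05) and the common SMAD gene *Smad4* (−0.82, adjusted p = 0.000287), itself on chromosome 18, fell. The interaction term was called for 24 of 34, higher for 6 and lower for 18, beside 18.8% and 16% of all genes, and without replicate 3 of E0771 shCtrl higher for 3.

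Between the control lines, 14 of 35 effector genes were higher in E0771-LG and 9 lower (median 0.22 beside −0.15 for all genes). The gelatinase *Mmp9* (3.01, adjusted p = 6.01e-05) was among the higher and *Col6a2* (−3.32, adjusted p = 1.91e-05) and *Sparc* (−2.77, adjusted p = 1.12e-07) were among the lower. Among all genes 19.2% were higher and 35.3% lower. Of 11 epithelial genes tested 3 were higher and 3 lower (median −0.12), with 6 higher without a filter and 0 lower under a filter on a mean value of at least 5. Of 26 other factors 8 were higher and 4 lower (median 0.11), beside 54.5% of all genes called. The 8 became 13 after quantile normalization and 5 without replicate 3 of E0771 shCtrl, and *Tbx3* (1.73, adjusted p = 4.38e-05) and *Prrx1* (0.95, adjusted p = 0.000226) were among them. Of 36 signalling genes 11 were higher and 10 lower (median 0.09), or 6 lower under the filter on a mean value of at least 5, with *Egfr* (1.81, adjusted p = 2.64e-05) higher and *Bmp7* (−2.59, adjusted p = 7.65e-05) lower. These counts are partly set by the filter value of 1 CPM. All E0771 values of the effector *Cnn1* (3 to 15 reads, called higher) were below it. So were all E0771-LG values of the epithelial gene *F11r* (3 to 9 reads) and the signalling gene *Fgf2* (0 to 3 reads), both called lower. Each could be tested only in the direction in which it was called.

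Markers of stromal cells were read in the cultures because several of them are also effector genes. Of 10 fibroblast markers 9 were measured, and their summed level was 74.8, 101 and 86.6 CPM in E0771 shCtrl and 331, 294 and 331 CPM in E0771 shPTN samples. The most abundant was *Pdgfra* in each shCtrl and *Col3a1* in each shPTN sample, and 0 to 3 of the 9 markers were at 0 in a sample, most often *Thy1* and *Lum*. In E0771-LG cells the sums were 92.2, 145 and 107 CPM with shCtrl and 58.3, 66.9 and 73.7 CPM with shPTN, with *Pdgfra* most abundant throughout. The groups did not overlap in either line, higher with shPTN in E0771 and lower in E0771-LG. In E0771 cells 5 of the 5 fibroblast markers tested were called higher, beside 8.89% of all genes. The filter partly set this count, because markers below it were not tested. *Col1a2* was at 1.74, 0.734 and 0.301 CPM with shCtrl and at 2.85, 4.93 and 4.22 CPM with shPTN. It met the filter only with its shPTN samples. In E0771-LG cells 1 of the 6 tested was called higher and 2 lower, beside 24.3% and 22.1% of all genes, and *Pdgfra* carried the sum. Pericyte and smooth muscle markers, 5 of 7 measured, went the same way, from 48 to 54.9 CPM with shCtrl to 173 to 243 CPM with shPTN in E0771 and from 40.6 to 64.9 CPM to 15.9 to 17.3 CPM in E0771-LG. Leukocyte markers, 6 of 6 measured, had higher sums with shPTN in both lines (37.3 to 43.9 against 70.6 to 86 CPM in E0771, 184 to 203 against 207 to 263 CPM in E0771-LG), but in E0771-LG the sum was carried by *Lcp1* (68.9 to 79.5 against 128 to 164 CPM), while *Laptm5* was lower with shPTN (82.6 to 87.9 against 43.1 to 46.8 CPM). The sum of 5 basal markers (24.5 to 40.9 CPM with shCtrl and 139 to 212 CPM with shPTN in E0771, 24.3 to 54.3 and 6.6 to 9.53 CPM in E0771-LG cells) was almost wholly *Acta2*, which also led the smooth muscle sum, whereas the basal keratins *Krt5* and *Krt14* were at or near 0. The summed endothelial markers (7 of 8 measured) were higher in E0771-LG shPTN cells, with 27.6 to 34.3 against 11.3 to 16.7 CPM, and adipocyte markers (2 of 6) lower, with 1.18 to 3.93 against 11 to 18.3 CPM. *Egfl7* (16.5 to 19.2 against 5.27 to 7.86 CPM) and *Esam* (5.3 to 8.25 against 0.636 to 2.35 CPM) carried the endothelial sum. *Pecam1* was also higher without overlap, but at a low level (0.0578 to 0.612 CPM with shCtrl and 0.663 to 1.33 CPM with shPTN). The groups overlapped for *Cdh5*, *Tie1*, *Kdr* and *Emcn*, and the adipocyte sum was almost wholly *Fabp4*. T cell markers (5 of 7) were near 0 in E0771-LG cells, with 0.161 to 0.817 CPM in shCtrl and 1.18 to 1.99 CPM in shPTN samples. *Cd3d* carried this sum, with 3 to 16 reads in shCtrl and 22 to 36 in shPTN samples, and the other T cell markers were at or near 0. The 8 luminal markers, 7 of them measured and led by *Krt8*, summed to 160, 208 and 166 CPM in E0771-LG shCtrl and 434, 576 and 529 CPM in E0771-LG shPTN samples, and their groups overlapped in E0771 cells (100 to 115 and 99.3 to 116 CPM). The sums of macrophage, neutrophil and skeletal muscle markers overlapped between the groups in both lines, and the endothelial, adipocyte and T cell sums overlapped in E0771 cells. Whether a change in the mix of cells within a culture has a part in these values was not tested.

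In the tumors, 3B10 treatment was not followed by a change in any member that passed the test. *Ptn* transcripts were too low to be tested in 4T1 tumors and did not pass in *MMTV-PyMT* tumors (log2 fold change 0.50, limma adjusted p = 1). Of 7 members in 4T1 tumors limma called 0 at an adjusted p under 0.05, beside 0% of all genes, and 2 at an unadjusted p under 0.05, beside 6.27%. One of the 2 was *Snai2*, at 1.35, 2.02 and 1.66 (deposited log2 values) with C44 and 1.95, 2.50 and 2.59 with 3B10, where the groups overlapped slightly. The antibody group was higher by 0.67 on average (SE 0.27, adjusted p = 0.741). The other was *Twist1*, at 5.42, 5.47 and 5.69 with C44 and 5.87, 5.78 and 5.81 with 3B10, the 1 member of 7 whose groups did not overlap, beside 11.3% of all genes. Here the means were 0.30 apart (SE 0.12, adjusted p = 0.772). The fold changes of the others ranged from −0.54 for *Zeb2* (adjusted p = 0.841) to 0.25 for *Vim* (adjusted p = 0.915), and the median of the 7 was 0.24 beside 0.01 for all genes.

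In *MMTV-PyMT* tumors 0 of 7 members were called by limma at an adjusted p under 0.05, beside 0% of all genes, 0 had an unadjusted p under 0.05, beside 2.7%, and 0 had groups that did not overlap, beside 8.34%. Fold changes ranged from −0.46 for *Snai1* to 0.51 for *Snai2*, each with an adjusted p of 1. The intervals were wide, from −1.77 to 1.07 for *Fn1* and from −1.92 to 1.00 for *Snai1*, because tumors within a group differed widely. *Fn1* was at 8.41, 7.98 and 5.94 log2 CPM with C44 and 7.56, 7.04 and 6.69 with 3B10, so that the highest and the lowest of the 6 tumors were both controls. Between the tumor models the effect differed for 0 of 7 members by the limma interaction term (0% of all genes), with 0 at an unadjusted p under 0.05, beside 2.31%.

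**Figure D4:**
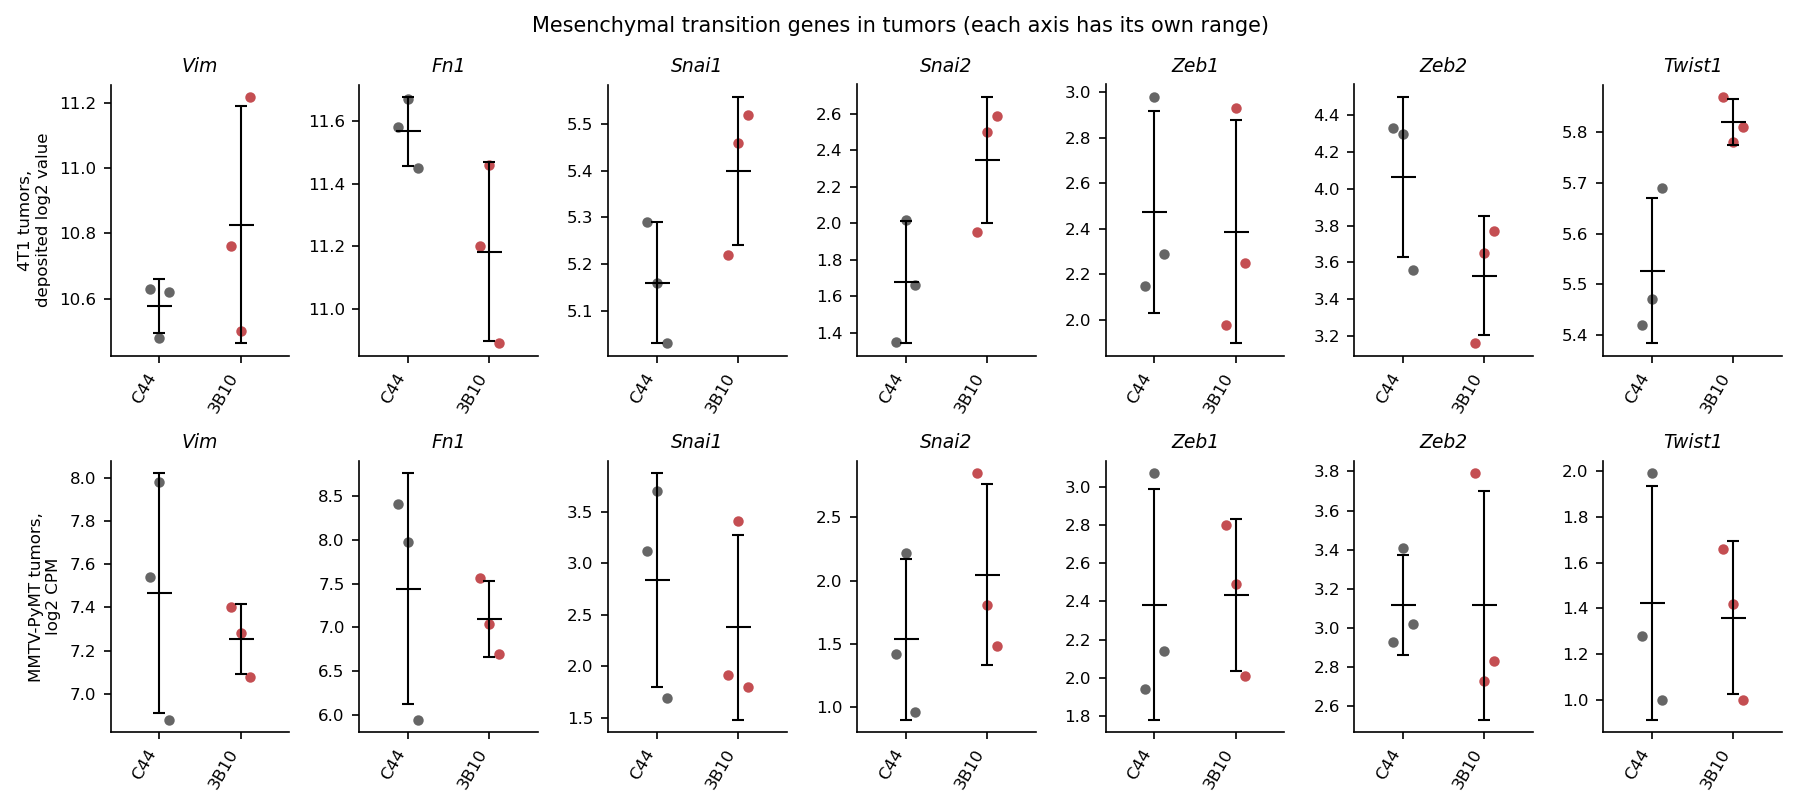
Values of the 7 genes in each tumor, as deposited log2 values in 4T1 (upper row) and as log2 CPM in *MMTV-PyMT* tumors (lower row), with the mean and SD of 3 tumors per group. Each panel has its own axis range, and levels are not comparable between the rows. *Twist1* in 4T1 tumors is the 1 gene whose groups do not overlap.

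Fibroblast markers also varied between *MMTV-PyMT* tumors. The 9 measured of 10 fibroblast markers, none of them at 0 and led by *Col1a1* or *Col3a1*, summed to 2291, 3471 and 1212 CPM in C44 and 2286, 1712 and 1737 CPM in 3B10 tumors. *Vim* was at 7.54, 7.98 and 6.88 log2 CPM in the same C44 and 7.40, 7.28 and 7.08 in the same 3B10 tumors, so the tumor with the highest sum had the most *Vim* and that with the lowest sum the least. *Fn1* was also lowest in that last tumor, but it was highest in replicate 1 of C44 (8.41) and not at the highest sum. *Zeb1* and *Snai1* were also highest at the highest sum, but *Zeb1* was lowest in replicate 1 of C44 (1.94), the tumor with the second highest sum, and *Snai1* was at 3.41 in a tumor with a sum of 1712 and at 1.92 in one with 2286 CPM. In 4T1 tumors the fibroblast sums were 1533, 2153 and 1393 with C44 and 1243, 4425 and 1949 with 3B10 (deposited values off the log scale). There the tumor with the highest sum, replicate 2 of 3B10, had one of the lowest *Vim* values (10.50). The part of stromal content in the values of the tumors was not tested.

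**Figure D5:**
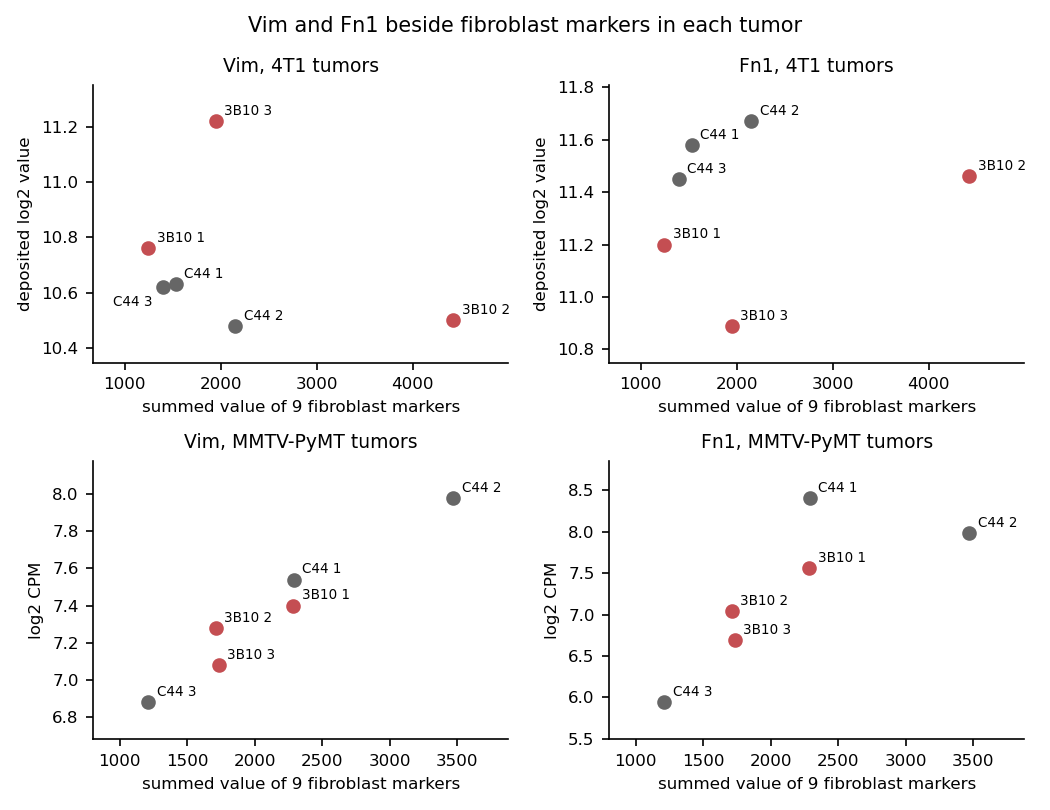
*Vim* and *Fn1* in each tumor (vertical axis, log2 values) against the summed level of the 9 measured fibroblast markers (horizontal axis, off the log scale), with dark points for C44 and red points for 3B10 and with the replicate number beside each point. In *MMTV-PyMT* tumors *Vim* is highest at a sum of 3471 and lowest at 1212 CPM.

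In the other lists limma called 0 genes in 4T1 tumors. Of 28 epithelial genes tested, 25 had a positive and 3 a negative fold change, with a median of 0.35 beside 0.01 for all genes, and 7 had an unadjusted p under 0.05, beside 6.27% of all genes. *Epcam* was at 7.82, 8.42 and 8.57 with C44 and 9.34, 9.21 and 8.88 with 3B10, without overlap (log2 fold change 0.87, SE 0.22, adjusted p = 0.722), and *Cdh1* at 5.83, 6.86 and 6.18 against 7.30, 7.19 and 6.74, with overlap (0.78, SE 0.27, adjusted p = 0.725). The summed luminal markers, 7 of 8 measured, were 3150, 3349 and 3382 with C44 and 4605, 4261 and 4983 with 3B10. Leukocyte markers, 6 of 6 measured, went the other way, with 1157, 1080 and 927 against 738, 856 and 648, and so did T cell markers, 5 of 7 measured, with 77.5, 98.8 and 136 against 57.9, 59 and 16.4. Skeletal muscle markers, 5 of 7 measured, were at 13.5, 11.8 and 27.2 with C44 and 40.5, 178 and 280 with 3B10. The sums of these 4 lists did not overlap between the groups, with 0 of their genes called. Those of the fibroblast, pericyte and smooth muscle, endothelial, macrophage, neutrophil, adipocyte and basal markers did overlap. Taken singly, 11.3% of all genes had groups that did not overlap, so the 4 sums say little about the tumors. The part of tumor composition in the values of the members was not tested.

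Effector genes in 4T1 tumors had a median of 0.20 with 0 of 45 called and 1 at an unadjusted p under 0.05, beside 6.27% of all genes. The medians were 0.07 for 29 other factors (0 called, 4 at an unadjusted p under 0.05) and −0.07 for 37 signalling genes (0 and 2). In *MMTV-PyMT* tumors limma likewise called 0 of 34 epithelial genes (3 at an unadjusted p under 0.05), 0 of 44 effector genes (2), 0 of 26 other factors (0) and 0 of 39 signalling genes (4), beside 2.7% of all genes at an unadjusted p under 0.05, and the medians lay between −0.17 and 0.02.

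The genes most like each member were taken over the 24 samples after the mean of each experiment had been subtracted, among 9789 genes tested in all experiments. By Pearson correlation *Zeb2* was most like *Son* (0.88), *Pik3r1* (0.86) and *Snx30* (0.86), and *Zeb1* was most like *Flrt2* (0.85), *Mlxip* (0.85) and *Tram2* (0.84). *Snai1* was most like *Tsc22d4* (0.88), *Fhl2* (0.87) and *Fxyd5* (0.81), and *Twist1* most like *Dguok* (0.85), *Rhbdf1* (0.85) and *Pcgf2* (0.84). *Vim* was most like *Akr1b8* (0.77), *Khdrbs1* (0.76) and *Fscn1* (0.75), and the gene most like *Snai2* was *Cnot10* (0.81). The points share libraries and include both treatment groups, so the correlations describe these samples and carry no test.

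By position in GRCm38, *Vim*, *Zeb2* and *Snai1* share chromosome 2, far apart from each other, and the rest lie on chromosomes 1 (*Fn1*), 12 (*Twist1*), 16 (*Snai2*) and 18 (*Zeb1*). Exons of *Zeb2* overlap the antisense gene *Zeb2os* over 653 bases, those of *Zeb1* overlap *Gm10125* over 198 and those of *Fn1* overlap *Apol7d* over 292 bases of the opposite strand. Because the sources used here do not state whether counting used the strand, reads within these shared bases cannot be told apart, which are a small part of the 19942, 10266 and 11685 exon bases of *Zeb2*, *Zeb1* and *Fn1*.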

How the data were processed

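Reads were aligned with HISAT2 to GRCm38 and counted with featureCounts, per the authors, and the table of log2 values was used as deposited. In 18 samples each log2 value of fewer than 2000 reads was recovered as a whole number of reads with an offset of 0.5 reads and a depth of 15.63 to 21.12 M. The 4T1 log2 values were taken to be normalized, by a method that the authors did not state. Columns were matched to samples by name, and 0 columns had no sample. Genes with a value off the log scale of at least 1 above the sample's lowest in at least 3 of the 6 samples were tested. Each experiment, 3 against 3, was fitted with limma 3.58.1 (lmFit, then eBayes with trend and robust), and every p was adjusted by Benjamini-Hochberg over all genes tested. Genes with an adjusted p under 0.05 were called. With 3 against 3 samples the smallest exact permutation p is 0.1, so moderated tests were used. Interaction terms compared effects between lines and between tumor models. Annotation was GENCODE M 21. R 4.3.3, Python 3.11.15, numpy 2.4.6, pandas 2.3.3, scipy 1.17.1 and matplotlib 3.10.9 were used. The members and the lists of genes were chosen with earlier results of these data known.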

Additional observations from a re-analysis of the deposited data

Results flagged for a closer look

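The effect of the knockdown differed between the lines for 3 of the 6 members tested, beside 34.7% of all genes. *Zeb1* was called in 17 of 17 alternatives, *Snai1* in 15 and *Zeb2* in 12. The median over chromosome 18, where *Zeb1* lies, was −0.31 in this comparison. The log2 fold change in E0771-LG minus that in E0771 cells was −0.69 for *Zeb1*, −0.58 for *Zeb2* and −0.82 for *Snai1*, with limma adjusted p-values of 0.0137, 0.0255 and 0.0197.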

How the results depend on the processing

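Each result was fitted again with other scalings, with another pseudocount, without robust eBayes, with a replicate block and with each sample left out in turn. Other filters and 1 fit of all 24 samples were applied to the comparisons of groups but not to the differences between lines or tumor models, and weights from voom on the recovered reads were added for groups other than 4T1 after the data had been seen. The planned edgeR fit was not run. The deposited unit is a log2 value, and the reads recovered for 18 samples were used with voom weights instead.

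Groups share replicate numbers, but at most 2 of 3 samples correlated best with the sample of their own number and not all pairs had a correlation over 0.1, so the numbers were not used as pairs in the tests above. In E0771 cells the number of members called was 1 and became 2 with the replicate block, which added *Zeb1* (limma adjusted p = 0.0454). With 1 sample left out it ranged from 1 to 2, with 2 without replicate 2 of shPTN. *Zeb2* ranged from −0.16 to 0.07. The fit of all 24 samples called 912 genes of all genes in E0771 instead of 2140.

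In E0771-LG cells *Zeb1* ranged from −1.05 to −0.87, *Zeb2* from −0.72 to −0.52 and *Twist1* from 0.45 to 0.59, each called in 15 of 15 alternatives. *Vim* ranged from −0.41 to −0.27 and was called in 14 of 15. *Snai1* passed in 3 of 15.

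For the difference between lines in the knockdown effect, the number of members called with 1 sample left out ranged from 1 to 3. *Zeb1* was called in 17 of 17 alternatives, *Snai1* in 15 of 17 and *Zeb2* in 12 of 17. *Snai2* ranged from −0.12 to 0.04 and *Epcam* from −0.27 to 0.01 with 1 sample left out.

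Between control lines *Snai2* was 0.03 after median-of-ratios scaling and 0.22 after quantile normalization, with a sign opposite to −0.12. With 1 sample left out *Zeb1* ranged from −0.13 to 0.11 and *Zeb2* from −0.09 to 0.12.

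In 4T1 tumors *Zeb1* ranged from −0.36 to 0.17 with 1 sample left out. Over all genes the count at an unadjusted limma p under 0.05 was 719 of 11467 in these tumors. It was 1302 without replicate 3 of C44 and 370 without replicate 3 of 3B10. At an adjusted p under 0.05, 2 genes were called without replicate 1 of 3B10 and 6 in the fit of all 24 samples. In *MMTV-PyMT* tumors *Zeb2* (−0.00) ranged from −0.34 to 0.19 and *Snai1* (−0.46) from −1.03 to −0.03 over 15 alternatives. *Snai2* (0.51) ranged from 0.11 to 0.85 over 14. With 1 sample left out *Vim* ranged from −0.50 to 0.04, *Fn1* from −1.10 to 0.14, *Zeb1* from −0.17 to 0.40 and *Twist1* from −0.27 to 0.22, and *Twist1* was 0.01 after quantile normalization. For the difference between tumor models *Fn1* was −0.01 after median-of-ratios scaling and −0.04 after quantile normalization, and with 1 sample left out it ranged from −0.71 to 0.52, *Zeb1* from −0.12 to 0.48 and *Snai2* from −0.56 to 0.19.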
